A study of Mus musculus with 15 samples.

Results

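The genes of oxidative phosphorylation were followed across the 3 groups of the study, with the subunits encoded in the nucleus set beside those encoded in mitochondrial DNA. Members were chosen by name from GENCODE M21, as protein-coding genes whose symbols begin with Nduf followed by a, b, c, s or v, with Uqcr, with Atp5 or with Cox and a subunit number from 4 to 8, the 4 Sdh subunit genes, and the mitochondrial genes mt-Nd, mt-Cytb, mt-Co and mt-Atp. The rule used no measured value and found 107 genes of 55536, of which 94 were nuclear and 13 mitochondrial. By complex, the nuclear genes numbered 46 for complex I, 4 for II, 8 for III, 18 for IV and 18 for V, and the mitochondrial genes 7, 0, 1, 3 and 2. Complex was assigned by the prefix of the symbol alone, so Ndufa4 and Ndufa4l2 count under complex I whichever complex their products join. Of the nuclear genes, 21 were grouped as core or catalytic subunits and 48 as accessory subunits. The core group takes in Cox4i1, Cox5a and Cox5b of complex IV, although the catalytic subunit of that complex, mt-Co1, is mitochondrial. A further 16 belong to pairs or trios of alternative isoforms, 8 encode complex I assembly factors that the name pattern also takes in, and 1, Atp5s, is a coupling factor.

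Oxidative phosphorylation takes place in the inner mitochondrial membrane. Complexes I and II pass electrons from NADH and succinate to ubiquinone, complex III passes them on to cytochrome c and complex IV to oxygen, and the proton gradient that this builds drives ATP synthesis by complex V. All subunits of complex II are nuclear, whereas the other complexes are assembled from subunits of both genomes. Mitochondrial genes are transcribed as long polycistronic RNAs by a polymerase of their own and then cut into shorter RNAs, while nuclear subunit genes are transcribed one by one. Naive T cells rest on low rates of respiration, and activated CD8+ T cells raise both glycolysis and mitochondrial activity as they grow and divide.

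The libraries came from CD8+ T cells of the OT-I line (OT-1 Tg C57BL/6J), which carry a transgenic receptor for the ovalbumin peptide SIINFEKL. The study's methods describe the donors as OT-I mice on a Rag-deficient background, of both sexes and a range of ages. Naive libraries (n = 5) came from OT-I mice whose cells were not transferred. For the Ag group (n = 5), OT-I cells were transferred into wild-type C57BL/6J recipients that were given the peptide with control rat IgG, and for the Ag+Costim group (n = 5) the recipients were given the peptide with agonist antibodies to CD134 (OX40) and CD137 (4-1BB). By the labels the transferred cells were collected at day 4, and CD8+ cells were sorted from spleen and lymph nodes. For transferred cells the study's methods give a time slightly before day 4. These methods describe a sort for CD8, for a CD45 marker of the donor cells and for the receptor chains of the OT-I line. Naive cells therefore differed from both other groups in transfer and host as well as in antigen. The labels do not tie libraries to separate animals, so p-values measure the spread between these libraries. Levels are given as CPM, the count of a gene scaled so that the gene counts of every library share 1 total, and each library below is named by its group and replicate number.

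Total counts ran from 4865952 to 25280667 per library, and the 4 CD8+ T cell markers were detected in every group. Marker levels moved with the groups. The CD8+ T cell markers summed to a median of 5176 CPM for Naive, 3634 CPM for Ag and 2996 CPM for Ag+Costim, and in Ag+Costim against Naive all 4 were lower at an unadjusted p under 0.05, of which 2 were called at an adjusted p under 0.05 (edgeR). The 5 erythroid markers summed to medians of 84.1, 56.3 and 15.3 CPM, and in Ag+Costim against Naive all 5 were lower at an unadjusted p under 0.05, with a median log2 fold change of −2.54 and none called. Of 4 tested B cell markers, 3 were called higher in Ag against Naive, beside 3.05% of all tested genes. The 6 myeloid markers were mixed in Ag+Costim against Naive. Of these, 2 were called lower, beside 23.6% of all tested genes. The other 4 had positive log2 fold changes, 2 of them at an unadjusted p under 0.05. The median of the 6 was 0.76, and their summed levels had medians of 49.2 CPM for Naive and 86.0 CPM for Ag+Costim. Ag 3 had the lowest total, with 16.9% of its reads counted, and the highest summed level of 5 erythroid markers (1235 CPM, against 13.3 to 168 CPM in the other Ag libraries). It also held both Xist (70.3 CPM) and the Y-linked gene Ddx3y (22.6 CPM), whereas the lower of the pair was at most 3.28 CPM in every other library. Naive 5 had the highest summed level of 6 myeloid markers (991 CPM, against 11.2 to 156 CPM in the other Naive libraries). Ag 2 and Ag 5 had input amounts of 1.4 and 1.8 in the core's records against 7 to 10 in the other libraries, and their 5 B cell markers summed to 14.7 and 18.2 CPM, against 151, 341 and 179 CPM in Ag 1, Ag 3 and Ag 4. Lane 2 held every Ag library with Ag+Costim 1 to 3, and lane 3 held every Naive library with Ag+Costim 4 and 5, so Ag and Naive cannot be told apart from lane. The part of these differences in the results below was not tested. In bulk RNA, a change in the RNA of each cell and a change in the mix of cells cannot be told apart.

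Mitochondrial genes lie end to end and in places overlap, and stretches of the nuclear genome repeat them, so the sequences set what a short read of a given gene can be assigned to. Coordinates are those of GRCm38, counted from 1. The 3 overlaps between neighbouring coding sequences are shown because unstranded reads within them belong to both genes. The mt-Atp8 and mt-Atp6 genes share M:7927-7969 on the plus strand, mt-Nd4l and mt-Nd4 share M:10167-10173 on the plus strand, and mt-Nd5 and mt-Nd6, which run in opposite directions, share M:13552-13565, printed as the plus strand. Capitals mark the first codon of mt-Atp6 and of mt-Nd4.
mt-Atp8 and mt-Atp6 overlap: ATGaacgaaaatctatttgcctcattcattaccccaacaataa
mt-Nd4l and mt-Nd4 overlap: ATGctaa
mt-Nd5 and mt-Nd6 overlap: ttaatctcgagtaa

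A block of 7 annotated pseudogenes on chromosome 1, between 24611535 and 24616197, repeats the mitochondrial genes from mt-Nd4 back to mt-Co1. Across 783 compared bases mt-Co3 and its copy Gm28437 did not differ, and across 345 bases mt-Nd3 and its copy Gm28438 differed at 1, T3C, counted from the first base of mt-Nd3 with the base of mt-Nd3 first. The mt-Nd3 window is M:9459-9519 on the plus strand and the Gm28438 window is chr1:24613059-24613119 on the minus strand. They are shown because a read that starts past the capital letter, which marks the substitution, could not be placed by these bases alone.
mt-Nd3: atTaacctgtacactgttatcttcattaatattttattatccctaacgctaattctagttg
Gm28438: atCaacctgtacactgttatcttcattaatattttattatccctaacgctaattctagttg

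Of the 13 mitochondrial genes, 9 had an annotated copy of at least 95% identity over at least 100 bases. Of the counts of each gene and its copies together, a median over libraries of 50.01% lay in the copy of mt-Co3, 50.2% in that of mt-Atp6, 49.7% in that of mt-Nd3, 50.2% in that of mt-Nd4l and 56.0% in those of mt-Co2. The shares were 32.9% for mt-Co1, 25.9% for mt-Nd4, 6.83% for mt-Nd2 and 2.64% for mt-Nd5. No annotated copy was found for mt-Nd1, mt-Nd6, mt-Cytb and mt-Atp8. Only annotated transcripts were searched, so copies in unannotated sequence, also between the pseudogenes of the block on chromosome 1, would be missed. For mt-Co3 the share ranged only from 49.98% to 50.03% over the 15 libraries. Of the 94 nuclear genes, 23 had such copies, with the largest shares for Atp5l (63.7%), Atp5g2 (52.4%) and Ndufab1 (39.4%). Levels of genes with copies are therefore uncertain by up to these shares. With the counts of the copies summed into the members, an alternative chosen after seeing the data, the numbers of genes called in each comparison were the same.

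Mitochondrial mRNAs took a smaller share of all gene counts in Ag+Costim than in Naive libraries, while nuclear subunit mRNAs took a larger one. The 13 mitochondrial genes made up 2.63%, 3.74%, 1.61%, 2.58% and 1.68% of counts in Naive 1 to 5, 1.65%, 1.36%, 1.77%, 1.73% and 1.38% in Ag 1 to 5 and 1.28%, 1.14%, 1.28%, 1.09% and 1.25% in Ag+Costim 1 to 5. The Ag+Costim libraries all lay below every Naive and every Ag library, whereas Ag and Naive overlapped. Group means were 2.45% ± 0.868 (SD, n = 5), 1.58% ± 0.197 and 1.21% ± 0.0888. Nuclear members made up 1.20%, 1.53%, 1.26%, 1.16% and 1.75% in Naive, 1.42%, 2.34%, 1.67%, 1.37% and 2.69% in Ag and 2.08%, 2.08%, 2.03%, 2.16% and 2.06% in Ag+Costim libraries 1 to 5. Here all Ag+Costim libraries lay above all Naive libraries, but within the range of the Ag libraries, where Ag 2 and Ag 5, the libraries of low input, were the highest. Measures of library quality divided the libraries in the same way. In the Ag+Costim libraries, Ag 2 and Ag 5, between 51.9% and 53.6% of reads were counted and 20949 to 25410 genes were detected, against 16.9% to 46.8% and 30152 to 44408 genes in all Naive libraries and Ag 1, Ag 3 and Ag 4. The percentage that the core's table calls RiP, without spelling it out, was 69.3 to 78.3 in the first set and 15.4 to 62.7 in the second. Ag 2 and Ag 5 also had the lowest mitochondrial shares of the Ag group. The part of library quality in either share was not tested. The means were 1.38% ± 0.250, 1.897% ± 0.586 and 2.08% ± 0.0490. The widest 95% Wilson interval of a single library's share spanned 0.0117 percentage points to either side, which covers counting error only and is far below the spread between libraries.

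**Figure D1:**
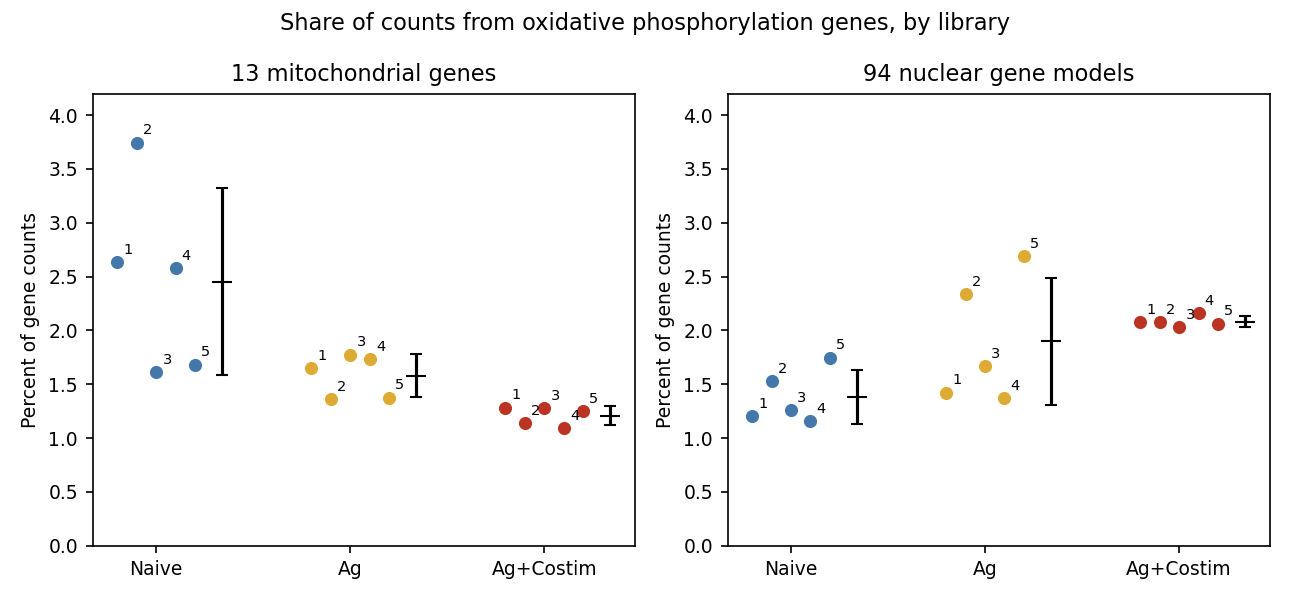
Percent of all gene counts taken by the 13 mitochondrial genes and by the 94 nuclear genes, 1 point per library with the group mean and SD (n = 5 per group). The mitochondrial share falls from a mean of 2.45% in Naive to 1.21% in Ag+Costim, and the nuclear share lies at 1.38% and 2.08%.

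The balance of the genomes, written as log2 of mitochondrial over nuclear counts, averaged 0.78 ± 0.59 (SD) for Naive, −0.22 ± 0.61 for Ag and −0.79 ± 0.14 for Ag+Costim libraries. Nuclear counts thus exceeded mitochondrial counts in all Ag+Costim libraries, while Ag and Naive each held libraries on either side. Within lane 3, the mitochondrial share was 2.45% in Naive (n = 5) and 1.17% in Ag+Costim (n = 2), and the nuclear share 1.38% and 2.11%. Within lane 2, the mitochondrial share was 1.58% in Ag (n = 5) and 1.23% in Ag+Costim (n = 3), and the nuclear share 1.897% and 2.06%. The 2 mitochondrial ribosomal RNAs, which are no members, took 0.858% ± 0.372 of the Naive counts, 0.678% ± 0.285 of the Ag counts and 0.347% ± 0.0479 of the Ag+Costim counts. Per length, as TPM (counts divided by transcript length and scaled to the same total), the median mitochondrial gene stood at 3257 ± 1016 (SD, n = 5) for Naive, 1835 ± 243 for Ag and 1688 ± 108 for Ag+Costim. The median of the 87 nuclear genes that passed the filter on low counts stood at 237 ± 30.5, 304 ± 83.5 and 333 ± 4.97 TPM, so the median mitochondrial gene stood above the median nuclear gene in every group. Single genes overlapped, since in Ag+Costim libraries mt-Nd4l lay at 184 to 211 TPM and nuclear Atp5b at 1958 to 2275 TPM.

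Changes gene by gene were tested with edgeR's quasi-likelihood test over all 17366 genes that passed the filter, and a gene was called at a Benjamini-Hochberg adjusted p under 0.05. Of the members, 100 were tested, 13 mitochondrial and 87 nuclear. The 7 left out were Ndufa4l2, Cox4i2, Cox6a2, Cox7b2, Cox8b, Cox8c and a second gene model of Atp5o. Because the filter admits a gene through the group where it is high, the counts below are of the tested genes.

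All 13 mitochondrial genes fell in Ag+Costim against Naive, with log2 fold changes from −0.73 (mt-Nd1) to −1.35 (mt-Nd6) and a median of −0.89, while the median of all tested genes was −0.08. Of all genes tested, 23.6% were called lower and 21.0% higher in this comparison. The CPM of the 2 groups did not overlap for any of the 13, with lower values in Ag+Costim, as for 27.3% of all tested genes. By complex, the median was −1.04 for the 7 genes of complex I, −0.78 for complex III, −0.82 for complex IV and −0.86 for complex V. Without the filter on low counts 7 of the 13 were called, beside 8.49% of all genes tested then, in either direction. With lane as a term in the model 2 were called, beside 5.43%, and within lane 3 alone 4, beside 34.7%. In the main fit 44.7% of all tested genes were called in either direction.

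mt-Cytb encodes cytochrome b, the mitochondrial subunit of complex III, and has no annotated copy. Its values were 4262, 5587, 2628, 4087 and 2539 CPM for Naive, 2103, 2046, 2589, 2205 and 2106 for Ag and 2126, 1937, 2023, 1877 and 2004 for Ag+Costim libraries 1 to 5. Ag libraries lay below Naive libraries with a single overlap, since Ag 3 lay just above Naive 5, and Ag+Costim libraries lay below all Naive libraries. It fell from Naive to Ag+Costim (log2 fold change −0.78 ± 0.19 SE, adjusted p = 0.00874). It was also the 1 mitochondrial gene called in Ag against Naive (log2 fold change −0.68 ± 0.19 SE, adjusted p = 0.0421).

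mt-Nd4, a proton-pumping subunit of complex I, gave the lowest adjusted p of the 13 genes. It was measured at 1114, 1767, 653, 1175 and 701 CPM for Naive, 715, 620.4, 728, 742 and 473 for Ag and 404, 396, 449, 373 and 412 for Ag+Costim libraries 1 to 5. Ag+Costim libraries lay below all others, and Ag and Naive overlapped. It fell in Ag+Costim against Naive (log2 fold change −1.26 ± 0.22 SE, adjusted p = 0.00283). Along with mt-Nd2, another pumping subunit of complex I (−1.16 ± 0.22, adjusted p = 0.00356), it was called under all 22 alternative settings.

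mt-Nd6, a membrane subunit of complex I, is the only one of these genes that runs in the opposite direction along the mitochondrial genome. It was at 446, 779, 238, 449 and 235 CPM for Naive, 259, 212, 324, 252 and 132 for Ag and 159, 144, 169, 127 and 154 for Ag+Costim libraries 1 to 5. The highest Ag+Costim library lay below the lowest Naive library, and Naive 2 was well above the other Naive libraries. This gene fell the most in Ag+Costim against Naive (log2 fold change −1.35 ± 0.29 SE, adjusted p = 0.00638), and its SE was also the largest. Its counts were made without strand, so reads of antisense RNA over the same bases are included.

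For complexes IV and V the changes were closely alike. mt-Co1, the catalytic subunit of cytochrome c oxidase, had means of 5609 CPM for Naive, 3996 for Ag and 2833 for Ag+Costim (log2 fold change −0.83 ± 0.20 SE, adjusted p = 0.00874 for Ag+Costim against Naive). mt-Co2, which takes electrons from cytochrome c, fell by 0.81 ± 0.19, and mt-Co3 fell by 0.82 ± 0.19 on the log2 scale. The ATP synthase genes mt-Atp6, a part of the proton channel, and mt-Atp8, which shares its end with mt-Atp6, fell by 0.91 ± 0.19 and 0.81 ± 0.19. For these genes, all but mt-Atp8 have annotated copies that hold between 32.9% and 56.0% of the counts.

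**Figure D2:**
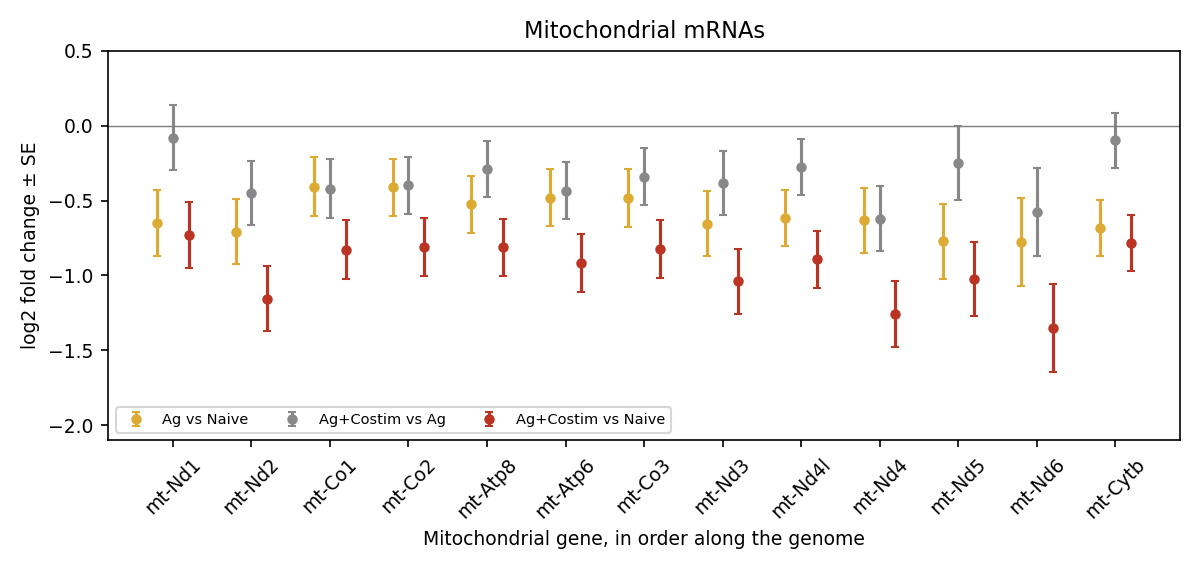
Log2 fold change with SE of each of the 13 mitochondrial genes, in order along the mitochondrial genome, in the 3 comparisons (edgeR, n = 5 libraries per group). All points lie below 0, and those of Ag+Costim against Naive run from −0.73 for mt-Nd1 to −1.35 for mt-Nd6.

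The makeup of the pool of mitochondrial mRNA is given as a description. The Naive and Ag+Costim libraries did not overlap in it for 5 genes, all of complex I. mt-Nd4 made up 4.34% ± 0.281 (SD) of the counts of the 13 genes in Naive and 3.37% ± 0.151 in Ag+Costim. Also lower in Ag+Costim were mt-Nd2 (3.17% ± 0.134 and 2.62% ± 0.0796), mt-Nd5 (5.47% ± 0.258 and 4.95% ± 0.131) and mt-Nd6 (1.68% ± 0.268 and 1.25% ± 0.0545). mt-Nd1 was higher, at 9.12% ± 0.228 and 10.04% ± 0.300. mt-Co1, the largest single part, took 23.1% ± 1.11 and 23.4% ± 1.13. In Ag libraries the spread was wider, as for mt-Co1 (20.8% to 29.8%) and mt-Nd5 (2.82% to 5.35%).

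In the nuclear set, 61 of 87 tested genes (70.1%) rose in Ag+Costim against Naive and 2 fell, beside 21.0% and 23.6% of all tested genes. The median log2 fold change was 0.69, and 82 of 87 were positive. DESeq2 called 66 higher and 2 lower, beside 24.1% and 29.0% of all genes. CPM did not overlap for 69 genes that were higher in Ag+Costim and 3 that were lower (Ndufa6, Cox7a2l and Atp5s, of which Ndufa6 is named after its values were seen), beside 18.3% and 27.3% of all tested genes. By complex, 28 of 45 rose in complex I (median 0.65), 4 of 4 in complex II (0.83), 7 of 8 in complex III (0.78), 9 of 13 in complex IV (0.73) and 13 of 17 in complex V (0.70). The count of called nuclear genes, 63, became 0 with lane as a term and was 68 within lane 3 alone, where 67 were higher and 1 lower. It also rested on single libraries: without Naive 4, Naive 1 or Naive 3 it was 17, 18 or 28, without Ag+Costim 2 or Ag+Costim 5 it was 41 each time, and without Naive 5 it was 69. Calls over all tested genes moved as well, from 44.7% to 5.43% with lane as a term, to 34.7% within lane 3, to 21.6%, 21.9% and 27.9% without Naive 4, Naive 1 or Naive 3, to 30.8% and 28.6% without Ag+Costim 2 or Ag+Costim 5 and to 51.0% without Naive 5.

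**Figure D3:**
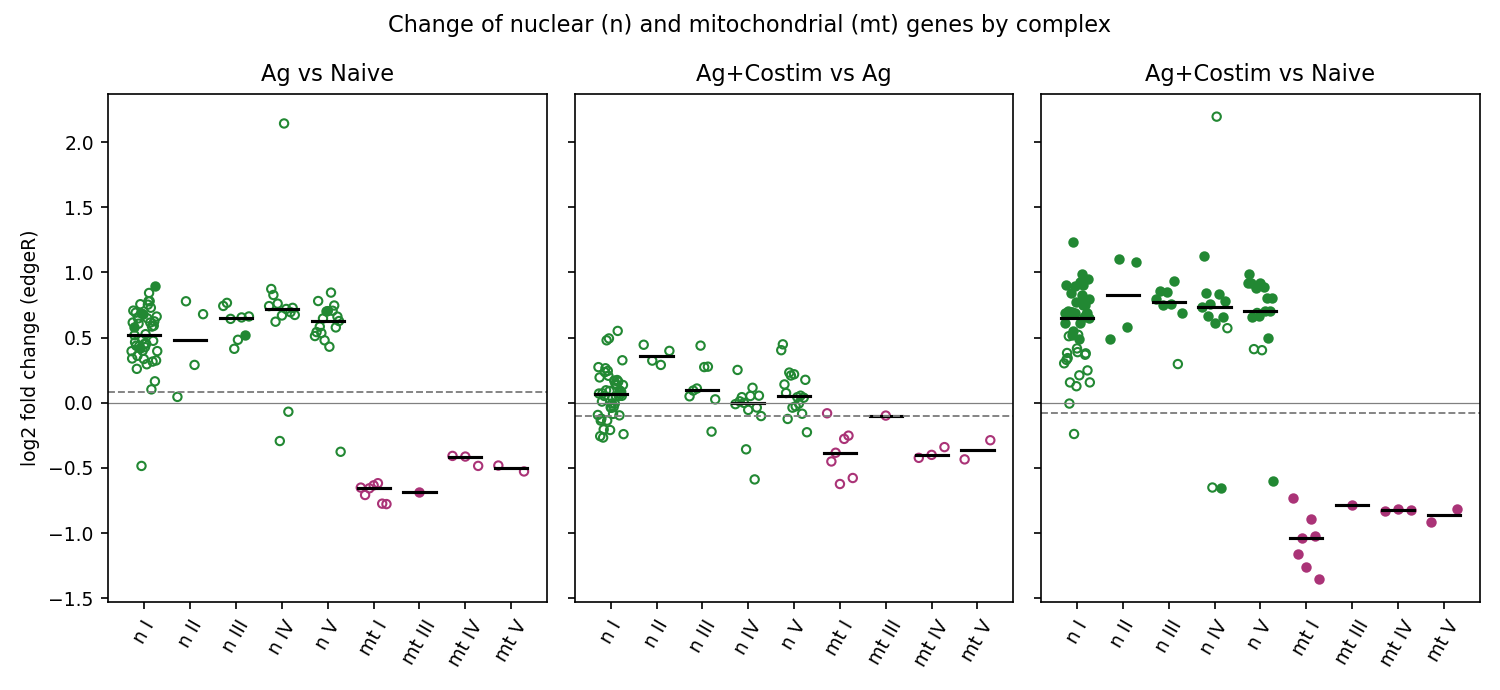
Log2 fold changes of the tested members by complex and genome in each comparison, 1 point per gene (filled where called) with the median of each set as a bar and the median of all tested genes as a dashed line. In Ag+Costim against Naive the nuclear medians lie between 0.65 and 0.83 and the mitochondrial medians between −0.78 and −1.04.

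Core subunits of complex I hold its iron-sulfur clusters and flavin. Ndufs1, Ndufs8, Ndufv1 and Ndufv2 rose in Ag+Costim against Naive, by 0.65 to 0.95 on the log2 scale. Ndufs3 (0.37 ± 0.17, adjusted p = 0.0865) and Ndufs7 (0.25 ± 0.18, adjusted p = 0.266) did not pass. Ndufs8, an iron-sulfur subunit of the arm that reaches the membrane, was measured at 98.7, 120.4, 93.3, 90.6 and 153 CPM for Naive, 148, 232, 158, 142 and 275 for Ag and 194, 201, 194, 197 and 189 for Ag+Costim libraries 1 to 5. Its Ag+Costim libraries lay above all Naive libraries, and Ag libraries were spread over both ranges. It rose in Ag+Costim against Naive (log2 fold change 0.95 ± 0.23 SE, adjusted p = 0.0100), and in Ag against Naive it rose the most of all called nuclear genes (log2 fold change 0.90 ± 0.23 SE, adjusted p = 0.0364).

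Complex II, succinate dehydrogenase, also serves in the tricarboxylic acid cycle and is nuclear throughout. All 4 of its genes rose in Ag+Costim against Naive. Sdhb, the iron-sulfur subunit, was measured at 187, 251, 194, 169 and 338 CPM for Naive, 230.3, 453, 342, 215 and 553 for Ag and 447, 444, 439.6, 463 and 433 for Ag+Costim libraries 1 to 5. Naive 5 was the highest Naive library for it, yet all 5 Ag+Costim libraries were higher still. It rose (log2 fold change 1.10 ± 0.30 SE, adjusted p = 0.0136), as did Sdhd, one of the membrane anchors (log2 fold change 1.08 ± 0.31 SE, adjusted p = 0.0178). Sdha, the flavoprotein with the succinate site (0.49 ± 0.14), and Sdhc, the other anchor (0.58 ± 0.17), rose by less.

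In complex III the core subunits Uqcrc1 (0.85 ± 0.22, adjusted p = 0.0123) and Uqcrc2 (0.76 ± 0.21, adjusted p = 0.0153) and the Rieske iron-sulfur protein Uqcrfs1 (0.93 ± 0.29, adjusted p = 0.0220) rose in Ag+Costim against Naive, where their mitochondrial partner mt-Cytb fell. In complex IV, Cox5a, which sits at the matrix face, was measured at 153, 228, 160.2, 145 and 325 CPM for Naive, 192, 459, 314, 184 and 545 for Ag and 411, 412, 385, 404 and 399 for Ag+Costim libraries 1 to 5. The Ag+Costim libraries lay close together and above all Naive libraries, while Ag 2 and Ag 5 were higher and Ag 1 and Ag 4 close to Naive. Cox5a rose (log2 fold change 1.13 ± 0.34 SE, adjusted p = 0.0213), and so did Cox5b (0.84 ± 0.26) and Cox4i1 (0.73 ± 0.21).

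The catalytic head of complex V is built from the products of Atp5a1 and Atp5b around the shaft subunit Atp5c1. Atp5b, which holds the catalytic sites, was the nuclear member with the highest mean CPM among those named and stood at 1122, 1510.3, 1349, 1056 and 2020.4 CPM for Naive, 1074, 2580.2, 1903, 1065 and 2777 for Ag and 2464, 2473, 2420.4, 2807 and 2579.5 for Ag+Costim libraries 1 to 5. Naive 5 was the highest Naive library and still lay below all Ag+Costim libraries, and Ag 1 and Ag 4 lay among the Naive values. Atp5b rose in Ag+Costim against Naive (log2 fold change 0.99 ± 0.31 SE, adjusted p = 0.0226), with Atp5a1 (0.92 ± 0.24), Atp5c1 (0.92 ± 0.24) and Atp5d (0.66 ± 0.21). Of all 21 genes grouped as core, which include Cox4i1, Cox5a and Cox5b, 19 rose in this comparison, with a median of 0.80. Of 46 accessory genes 30 rose, with a median of 0.69, beside 21.0% of all tested genes. Whether those sets differ was not tested.

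**Figure D4:**
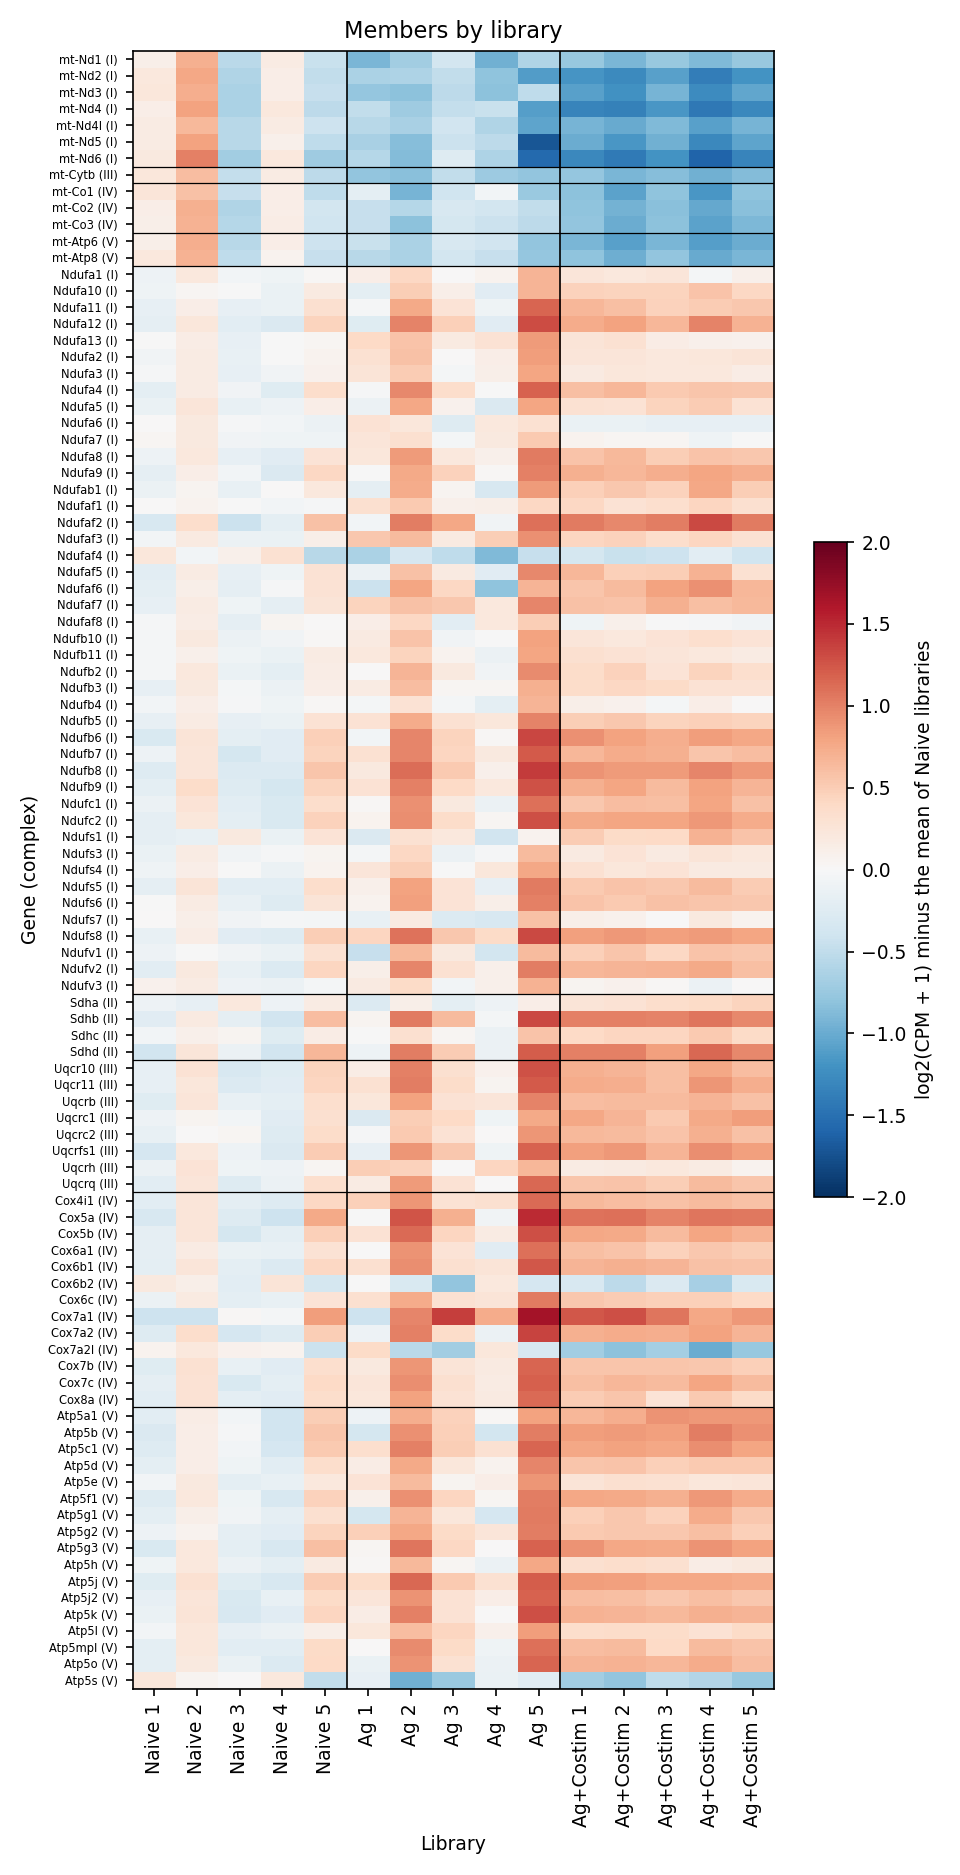
Tested members in rows (1 nuclear gene is not drawn), by genome and complex, and the 15 libraries in columns. Colour gives log2(CPM + 1) minus the mean of the 5 Naive libraries, from −2 to 2, and the mitochondrial rows are blue in Ag+Costim while most nuclear rows are red in Ag+Costim, Ag 2 and Ag 5.

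Assembly factors of complex I that the name rule takes in moved with the subunits for the most part, with 6 of 8 called higher in Ag+Costim against Naive, beside 21.0% of all tested genes, and a median of 0.62. Ndufaf2, a chaperone of late assembly, was measured at 8.24, 13.7, 7.52, 9.07 and 16.3 CPM for Naive, 10.1, 22.2, 18.7, 9.95 and 23.8 for Ag and 22.6, 21.5, 22.4, 27.8 and 22.7 for Ag+Costim libraries 1 to 5. Its Ag+Costim libraries lay above all Naive libraries, and it rose the most of all called nuclear members (log2 fold change 1.24 ± 0.32 SE, adjusted p = 0.0117). In the other direction, Cox7a2l, counted under complex IV by its symbol, was measured at 114, 125, 115, 114 and 79.9 CPM for Naive, 142, 74.3, 66.4, 127 and 87.0 for Ag and 66.4, 60.8, 67.0, 54.0 and 63.8 for Ag+Costim libraries 1 to 5. Ag+Costim libraries were all below Naive libraries, Naive 5 lay well under the other Naive libraries, and the Ag libraries spanned both ranges. It fell (log2 fold change −0.66 ± 0.16 SE, adjusted p = 0.00933). Atp5s fell as well (log2 fold change −0.60 ± 0.18 SE, adjusted p = 0.0215) at a level of 12.1 CPM in Naive and 7.17 CPM in Ag+Costim.

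Several subunits exist in alternative forms, of which one is made in most tissues and another in muscle, lung, testis or under low oxygen. The widely expressed form carried nearly all counts in every group. Cox4i1 stood at 702 TPM in Naive and 1054 TPM in Ag+Costim, while Cox4i2 was at 0 in all libraries of both groups and reached 1.03 CPM in Ag 3. The heart and muscle forms Cox6a2 and Cox8b had at most 1.03 and 0 CPM in any library, and Ndufa4l2, a form induced by low oxygen, was at 0 throughout. Cox7a1, a muscle form, averaged 0.409 CPM for Naive, 1.71 for Ag and 1.78 for Ag+Costim and was not called (log2 fold change 2.20 ± 1.01 SE, adjusted p = 0.0864). The testis form Cox6b2 averaged 1.47, 1.12 and 0.836 CPM. Among the widely expressed forms, Cox6a1, Cox6b1, Cox7a2 and Ndufa4 rose in Ag+Costim against Naive by 0.67, 0.76, 0.84 and 0.70 on the log2 scale, and Cox8a did not pass (0.57 ± 0.23, adjusted p = 0.0555).

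The c subunit of the ATP synthase rotor is the same mature protein made from 3 genes that differ in their import sequence. Per length, Atp5g3 was the highest in each group, at 820 TPM for Naive, 1140 for Ag and 1423 for Ag+Costim, Atp5g1 stood at 211, 280 and 311 TPM and Atp5g2 at 138, 193 and 198 TPM. Atp5g3 rose in Ag+Costim against Naive (0.92 ± 0.29, adjusted p = 0.0220), as did Atp5g2 (0.67 ± 0.20, adjusted p = 0.0182), and Atp5g1 did not pass (0.69 ± 0.28, adjusted p = 0.0554). Copies held 52.4% of the joint counts for Atp5g2 and 35.4% for Atp5g1, so the order of those genes is uncertain. The genes Atp5c1 and Ndufv3 were followed by transcript. Atp5c1-203, of 1166 bases, took 94.9% to 99.8% of the Atp5c1 counts in every library. Ndufv3-202, of 493 bases, took 69.8% ± 4.78 (SD) of the Ndufv3 counts for Naive, 73.8% ± 5.48 for Ag and 75.6% ± 1.51 for Ag+Costim, and the longer Ndufv3-201, of 1582 bases, took 22.4% ± 3.35, 19.6% ± 1.35 and 22.0% ± 1.97, so the groups overlapped for each.

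Antigen alone gave few calls. In Ag against Naive, 7 of 87 nuclear genes rose and 0 fell, beside 3.05% higher and 3.66% lower among all tested genes, and the nuclear median was 0.62 with 83 of 87 positive. At an unadjusted p under 0.05, 66 were higher and 1 lower, beside 15.2% and 13.5% of all tested genes, and DESeq2 called 33 higher and 1 lower, beside 7.82% and 8.96%. The 7 genes were Ndufs8, Atp5g2, Ndufaf3, Ndufaf7, Ndufa13, Ndufaf1 and Uqcrh, of which the last 2 are named beyond the rule to complete the count. Ndufaf3, an early assembly factor of complex I, was measured at 26.4, 31.4, 25.4, 25.1 and 29.8 CPM for Naive, 40.6, 43.1, 31.4, 39.2 and 52.4 for Ag and 37.5, 38.1, 35.3, 37.4 and 34.3 for Ag+Costim libraries 1 to 5. All Ag libraries lay above all Naive libraries for Ndufaf3 (0.69 ± 0.15, adjusted p = 0.0185), and likewise for Ndufa13, an accessory subunit (0.59 ± 0.15, adjusted p = 0.0349), and Ndufaf1 (0.42 ± 0.12, adjusted p = 0.0486). These 3 were the nuclear genes without overlap, all higher, beside 1.36% higher and 2.26% lower of all tested genes. The count of 7 became 0 without Naive 1, Naive 3, Naive 4 or Ag 2, was 1 without Ag 5 and 4 without Naive 2, and was 49, 39 and 32 without Naive 5, Ag 4 and Ag 1. It became 63 without both Ag 3 and Naive 5, a setting added after seeing the data. The share of all tested genes called in either direction moved as well, from 6.71% to between 1.42% and 5.53% without those libraries that left 0 to 4 nuclear calls, to 21.5%, 10.99% and 10.4% without Naive 5, Ag 4 and Ag 1 and to 22.9% without Ag 3 and Naive 5.

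For the mitochondrial genes in Ag against Naive, mt-Cytb alone was called (1 of 13, beside 3.66% of all tested genes called lower). The median was −0.63, all 13 were negative, and 12 were lower at an unadjusted p under 0.05, beside 13.5% of all tested genes. No mitochondrial gene was without overlap between the groups. The count was 9 without Naive 5, 2 without Naive 3 or Ag 3 and 0 without any 1 of the other 7 libraries, and DESeq2 called 9, beside 8.96% of all genes lower. By the design, lane and host differ between these groups along with antigen.

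Costimulation on top of antigen gave no call for any member. For Ag+Costim against Ag, edgeR called 0 of 87 nuclear and 0 of 13 mitochondrial genes, beside 0.0288% higher and 0.00576% lower among all tested genes. At an unadjusted p under 0.05, 2 nuclear genes were higher and 2 lower, and 3 mitochondrial genes were lower, beside 7.28% higher and 19.5% lower of all tested genes. DESeq2 called 2 nuclear genes higher and 1 lower and 1 mitochondrial gene lower, beside 3.83% and 10.8%, each above the share of the nuclear members. Without Ag 5, edgeR called 5 nuclear genes and 1 mitochondrial gene, beside 19.7% of all tested genes. Without Ag 2 it called 2 and 0, beside 14.8%. The nuclear median was 0.05 and the mitochondrial median −0.38, with all 13 mitochondrial genes negative, against −0.10 for all tested genes. The Ag libraries differed from each other far more than the Ag+Costim libraries did, as the nuclear shares of 1.37% to 2.69% and 2.03% to 2.16% show.

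CPM did not overlap for 2 nuclear genes that were higher in Ag+Costim and for 5 mitochondrial genes that were lower (mt-Nd3, mt-Nd4, mt-Co2, mt-Atp6 and mt-Atp8), beside 4.84% and 2.20% of all tested genes. The nuclear count is a smaller share than that of all genes, and both genes are given for their values only. Ndufs1, the largest iron-sulfur subunit of complex I, was measured at 138, 142, 179, 142 and 191 CPM for Naive, 128, 194, 182, 119.6 and 165 for Ag and 224, 205, 208, 256 and 234 for Ag+Costim libraries 1 to 5. Ag and Naive values were mixed with each other, and all Ag+Costim values were higher (log2 fold change 0.55 ± 0.18 SE, adjusted p = 0.0944). Sdha behaved alike at 445, 428, 555, 449 and 535 CPM for Naive, 396, 522, 421, 447 and 528 for Ag and 577, 588, 609.7, 629 and 657 for Ag+Costim libraries 1 to 5. Its lowest Ag+Costim library lay above its highest Ag library (log2 fold change 0.45 ± 0.14 SE, adjusted p = 0.0889).

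Core and accessory genes, grouped as above with Cox4i1, Cox5a and Cox5b as core, are set side by side for this comparison as a description. The median log2 fold change of Ag+Costim against Ag was 0.27 for the 21 core genes, of which 20 were positive, and 0.04 for the 46 accessory genes, of which 25 were positive. Leaving out Ag 1 or Ag 4 lowered these to 0.11 and −0.09 or 0.13 and −0.09, and leaving out Ag 2 or Ag 5 raised them to 0.46 and 0.25 or 0.49 and 0.26, so the level of either median rested on single Ag libraries while the core median was the higher each time. Core mRNAs were also longer, with a median of 1363 bases for the main transcript against 642 for accessory genes. Across the 87 nuclear genes, Spearman's rho of transcript length with the log2 fold change was 0.49 for Ag+Costim against Ag, −0.28 for Ag against Naive and 0.08 for Ag+Costim against Naive. Over 12098 protein-coding genes it was −0.17, −0.22 and −0.32. Genes are not independent replicates, and the comparisons share libraries. The part of transcript length in the difference was not tested.

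**Figure D5:**
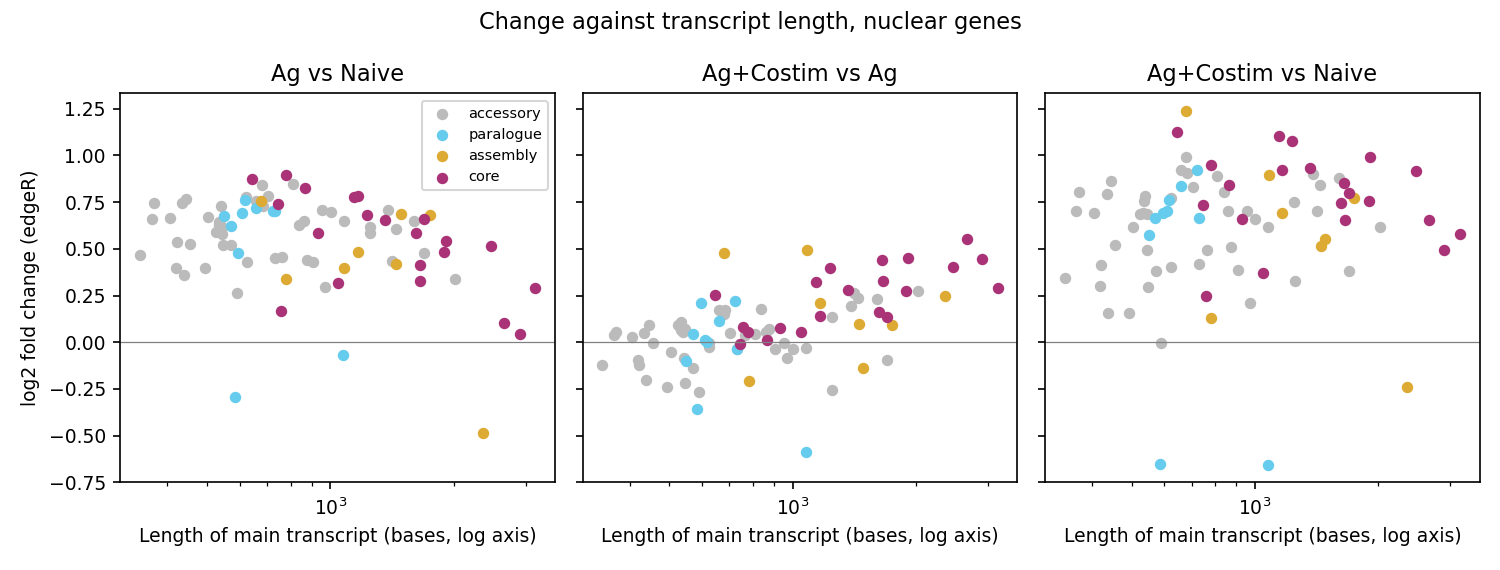
Log2 fold change of each tested nuclear gene against the length of its main transcript on a log axis, in the 3 comparisons, coloured by role. Cox7a1, which lies above 2 in Ag against Naive and in Ag+Costim against Naive, and Atp5s are not drawn. In Ag+Costim against Ag the rank correlation is 0.49 over 87 genes, and it is −0.28 and 0.08 in Ag against Naive and Ag+Costim against Naive.

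Other genes of the pathway were counted from lists. Tricarboxylic acid cycle enzymes feed electrons to complexes I and II, and 10 of 14 tested rose in Ag+Costim against Naive, with 1 lower and a median of 0.65, beside 21.0% higher and 23.6% lower of all tested genes. By lowest p these were led by Idh2, a mitochondrial isocitrate dehydrogenase, which fell (−1.21), and by Dld (0.80), Sucla2 (0.68) and Suclg1 (0.65), which rose. Among assembly factors and electron carriers outside the name rule, 13 of 41 (31.7%) rose and 3 (7.32%) fell, with a median of 0.29. Among them were the complex I factor Acad9 (0.75) and the complex IV translation factor Taco1 (0.74), which rose, and the complex III factors Ttc19 (−1.07) and Lyrm7 (−0.90), which fell.

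Of 16 genes tested for transcription and replication of mitochondrial DNA, 3 (18.8%) rose and 1 (6.25%) fell in Ag+Costim against Naive, with a median of −0.09, which for rises is near and for falls under the 21.0% and 23.6% of all tested genes. Tfam, which packages mitochondrial DNA and starts its transcription, rose (0.50), with the exonuclease Mgme1 (0.97) and the methyltransferase Tfb1m (0.69), and Polg2, the accessory subunit of the mitochondrial DNA polymerase, fell (−0.52). Of 18 genes of mitochondrial RNA processing and stability, 6 (33.3%) rose and 2 (11.1%) fell, with a median of 0.26. Slirp, which stabilises mitochondrial mRNA, rose (0.96), as did Rexo2 (0.50) and Fastkd3 (0.63), and Fastkd1 fell (−0.91).

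Of 11 nuclear regulators of respiratory genes, 2 rose and 2 fell in Ag+Costim against Naive, 18.2% each way and under the 21.0% and 23.6% of all tested genes. At an unadjusted p under 0.05, 2 were higher and 6 lower, beside 26.1% and 29.6%. Nrf1, a transcription factor for many subunit genes, rose (0.60), with Gabpb1, a subunit of the ETS-family factor GABP (0.49). The coactivator Ppargc1b fell (−1.32), and so did Myc (−0.52). In Ag against Naive, Ppargc1b (−1.48), Pprc1 (−1.14) and Myc (−1.04) fell and none of the 11 rose. In the same comparison Idh2 (−1.11) and Fastkd1 (−1.48) fell, Cox20 (0.58) and Surf1 (0.42), both assembly factors of complex IV, rose, and 0 genes of the transcription and replication list were called by edgeR (2 at an unadjusted p under 0.05, both lower, and 1 by DESeq2). Between Ag+Costim and Ag, edgeR called 0 genes of these lists. At an unadjusted p under 0.05, 3 genes of the tricarboxylic acid cycle, 2 of transcription and replication and 9 of RNA processing were higher and none lower, 5 of assembly and carriers were higher and 6 lower, and 3 regulators were higher and 2 lower, beside 7.28% and 19.5% of all tested genes. DESeq2 called 3, 0, 6, 4 and 3 genes of these lists in that order, beside 3.83% higher and 10.8% lower of all genes.

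As a description, the promoters of the nuclear members were searched for letters that NRF1, ETS-family factors, YY1 and SP1 are known to prefer. A promoter here is the stretch of 300 bases from 250 before to 50 after a RefSeq transcript start on GRCm38.p6, and 74 of 93 nuclear symbols had one, with 79 promoters in all. Both strands were searched. CGCATGCG, the core of NRF1 sites, was in 13.9% of member promoters, against 1.87% of all 32851 promoters and 3.90% of the 12084 promoters of tested protein-coding genes. CCGGAAG, a core of ETS sites such as those of GABP, was in 22.8%, against 8.86% and 18.0%. AAGATGGC, a YY1 core, was in 12.7%, against 2.75% and 4.50%, and GGGCGG, the SP1 box, in 43.0%, against 35.7% and 61.2%. No motif is part of another one, and 5 member promoters held both the NRF1 and the ETS letters. A match is a description of the letters and not of binding.

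The promoters of Sdhb, of Uqcrc1 and of Cox7a2l are printed, the first because it holds the ETS letters and its gene was among the most raised, the second because it holds the NRF1 letters, and the third because its gene fell while most members rose. They are chr4:140961021-140961320 on the plus strand, chr9:108936398-108936697 on the plus strand and chr17:83514284-83514583 on the minus strand. Capitals mark the ETS letters in Sdhb and the NRF1 letters in Uqcrc1, and the Cox7a2l window held neither.
Sdhb: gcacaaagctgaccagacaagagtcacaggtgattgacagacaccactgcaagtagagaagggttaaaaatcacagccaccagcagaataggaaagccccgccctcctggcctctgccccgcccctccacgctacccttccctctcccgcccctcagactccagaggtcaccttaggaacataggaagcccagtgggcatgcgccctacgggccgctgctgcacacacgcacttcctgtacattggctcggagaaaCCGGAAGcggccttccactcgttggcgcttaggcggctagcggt
Uqcrc1: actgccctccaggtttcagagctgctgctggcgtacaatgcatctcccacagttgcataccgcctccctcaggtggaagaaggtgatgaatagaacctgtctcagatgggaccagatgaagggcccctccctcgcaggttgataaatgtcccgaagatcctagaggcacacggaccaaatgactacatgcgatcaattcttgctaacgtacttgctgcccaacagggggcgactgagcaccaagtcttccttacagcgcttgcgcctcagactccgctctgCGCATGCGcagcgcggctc
Cox7a2l: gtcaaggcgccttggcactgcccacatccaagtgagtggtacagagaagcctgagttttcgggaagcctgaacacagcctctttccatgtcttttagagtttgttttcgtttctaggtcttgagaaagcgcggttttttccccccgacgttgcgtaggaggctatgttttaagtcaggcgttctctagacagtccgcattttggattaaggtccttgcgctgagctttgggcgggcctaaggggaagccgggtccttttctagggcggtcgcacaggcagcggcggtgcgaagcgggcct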

How the data were processed

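RNA of 15 libraries (SMART-Seq v4 and Nextera XT, single reads of 50 bases per the labels) was aligned by the authors with HISAT2 2.1.0 to mm10 and assembled with StringTie 2.1.0, and the deposited gene and transcript tables give the estimated counts that resulted, rounded and without normalisation. Per the file headers, the core's table gives sequenced reads, position, input amount and the percent of reads aligned, and position was read as the lane. Of 81881 gene entries, 55536 matched GENCODE M21 by identifier; entries named by a number alone (0.0818% of counts) were left out.

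Counts of all libraries were fitted together in edgeR 4.0.16 (filterByExpr, TMM, robust quasi-likelihood, 1 coefficient per group, two-sided), with Benjamini-Hochberg adjustment over 17366 genes. DESeq2 1.42.0 was the alternative test. TPM was computed from transcript counts and lengths. Copies were found with blastn 2.17.0 among GENCODE transcripts. The edgeR fit was tested on simulated counts with known changes, the same spread for every gene and no lane effect, which differs from these libraries. Named genes were the mitochondrial genes, core subunits and isoform groups, the 5 highest and 5 lowest called nuclear genes per comparison with at least 5 CPM, and at most 4 called genes per pathway list by lowest p. The members and lists were chosen with earlier results of these data known.

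Alternatives were other scalings and filters, only the libraries compared, lane, a replicate block, each library left out and, added later, summed copies and the removal of Ag 3 and Naive 5. The values of 1 nuclear gene are not reported here.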

Additional observations from a re-analysis of the deposited data

Results flagged for a closer look

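Of 159 sets of 5 libraries tested for a value far from the other 4, 6 were flagged, and chance flags about 1 in 20, or 7.95 of them. In the Naive group, Naive 5 stood apart for 3 genes: Ndufv1 at 149 CPM (the other Naive libraries lay between 109.7 and 119.8 CPM), Cox7a1 at 1.38 CPM (0 to 0.356 CPM) and Cox7a2l at 79.9 CPM (114 to 125 CPM). This is the library with the highest myeloid markers. In the Ag+Costim group, Ag+Costim 4 stood apart for the other 3: Atp5c1 at 569.6 CPM (509 to 522 CPM), Atp5g1 at 168 CPM (138 to 146 CPM) and Ndufaf2 at 27.8 CPM (21.5 to 22.7 CPM).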

How the results depend on the processing

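In Ag against Naive, the count of called nuclear genes (7) was 13 with library totals, 0 without the filter on low counts, with only the libraries compared or with lane as a term, 63 without Ag 3 and Naive 5, 34 with DESeq2 and 0 to 49 with 1 library left out. The mitochondrial count (1) was 2 with DESeq2's size factors, 4 with library totals, 3 with a filter of 1 CPM, 0 without a filter, with only the libraries compared or with lane as a term, 10 without Ag 3 and Naive 5, 9 with DESeq2 and 0 to 9 with 1 library left out. In Ag+Costim against Ag, the nuclear count (0) was 1 without Ag 3 and Naive 5, 3 with DESeq2 and 0 to 5 with 1 library left out, and the mitochondrial count (0) was 1 with DESeq2 and 0 to 1. In Ag+Costim against Naive, the nuclear count (63) was 0 with lane as a term and 17 to 69 with 1 library left out, and the mitochondrial count (13) was 7 without the filter, 2 with lane as a term, 4 within 1 lane and 13 to 13 with 1 library left out. Calls over all genes moved too, in Ag against Naive from 6.71% to between 0% and 22.9%. In Ag+Costim against Ag they moved from 0.0346% to 19.7% without Ag 5, 14.8% without Ag 2 and 14.6% with DESeq2. In Ag+Costim against Naive they moved from 44.7% to between 5.43% and 64.8%. Without a filter 48994 genes were tested in place of 17366. With lane as a term, the nuclear median log2 fold change in Ag+Costim against Naive was 0.71, against 0.69 in the main fit. For Ag against Naive the nuclear median was 0.65 with lane as a term, against 0.62 in the main fit. The mitochondrial median of that comparison was −0.66, against −0.63. The causes of these moves were not tested. Library totals in place of TMM moved the median of all genes in Ag+Costim against Naive from −0.08 to −0.23.

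Whether replicate numbers pair the libraries was not settled. The correlations of same-numbered deviations ran from −0.32 to 0.47. In every group, replicates 1, 2 and 5 had the highest Xist, and replicates 3 and 4 the highest Ddx3y. Ddx3y in those 2 replicates was at 120.8 and 116.7 CPM for Naive, 22.6 and 87.5 for Ag and 39.8 and 39.7 for Ag+Costim. With a replicate block, Ag against Naive gave 25 nuclear and 0 mitochondrial calls, Ag+Costim against Ag 0 and 0, and Ag+Costim against Naive 73 and 13. The mitochondrial share in Ag+Costim fell by 0.372 percentage points against Ag and by 1.24 against Naive, and with copies added the differences were −0.624 and −1.89 (named copies) or −0.625 and −1.89 (copies by sequence). By the longest transcript, median levels were 2137 and 1977 TPM for mitochondrial genes in Ag and Ag+Costim and 194 and 286 TPM for nuclear genes in Naive and Ag+Costim. Of 49 calls for members that the rule names, 0 changed sign and 47 were lost in at least 1 alternative.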
